A study of Mus musculus with 2 samples.

Results

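The nuclei described here were fibroblast-gated nuclei in which UMIs of a 6-gene set linked to resting interstitial fibroblasts outnumbered those of a 6-gene set linked to activated fibroblasts. A nucleus was retained with at least 1000 UMIs (unique molecular identifiers, each a counted RNA molecule) and under 5% mitochondrial UMIs. It was fibroblast-gated when the summed UMIs of Pdgfra, Dcn, Lum, Col3a1, Col1a1, Col1a2 and Fbln1 reached 30 per 10000 UMIs (F) with at least 4 of the 7 genes detected. Q was the raw UMI sum of Abca8a, Scara5, Pi16, Dpp4, Gsn and Cd34, and A was the raw UMI sum of Postn, Nox4, Kif26b, Itgbl1, Adam12 and Pappa. Gated nuclei with Q above A are called Q-high and those with A above Q are called A-high. Of 72338 deposited nuclei, 60121 were retained and 14183 were fibroblast-gated. The gated nuclei comprised 1275 Q-high nuclei, 10825 A-high nuclei and 2083 nuclei with Q equal to A.

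Single-nucleus RNA-seq was performed on tumors of the dFLEx CDS mouse, in which Cre and FLPE recombinases turn on the CIC::DUX4 sarcoma fusion. In this model, plasmids that express both recombinases are electroporated into the calf muscle, so muscle tissue and host stroma surround the tumor. The first group held 4 untreated tumors, labelled dFLEx CDS +/-, for which the labels name no vehicle. The second held 4 tumors of dFLEx CDS mice, with no allele state in the label, dosed with Minnelide at 0.42 mg/kg over 21 days. Minnelide is the soluble prodrug form of triptolide, which binds the XPB subunit of the general transcription factor TFIIH. The treated tumors were chosen by the study among those that had responded well or poorly, so the Minnelide group pools both kinds, which the labels do not tell apart. The labels give neither age nor sex, and the methods describe electroporation of young adult mice of both sexes. Each deposited matrix was taken as a tumor, and the tumor numbers used here are names that pair no tumors. Deposited totals ran from 18487409 UMIs in untreated 4 to 73211599 in Minnelide 1, and retained nuclei from 4846 in Minnelide 4 to 11449 in Minnelide 1.

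Interstitial fibroblasts lie between muscle fibers and around vessels, where they lay down collagen and supply growth factors. In many tissues, Pi16 and Dpp4 mark fibroblasts of the adventitia, the outer sheath of vessels, which also express Cd55, Sema3c and Clec3b. Dcn encodes decorin, a collagen-binding proteoglycan, Gsn the actin-severing protein gelsolin, and Scara5 a ferritin receptor. Activated fibroblasts raise matrix genes such as Postn (periostin) and Adam12, a metalloprotease.

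The label of quiescent interstitial fibroblasts held for only some of the selected nuclei, so they are named here by their rule. The margin of the rule was narrow. In 679 of the 1275 Q-high nuclei (53.3%), Q was 1 UMI above A, and 429 nuclei (33.6%) had 1 Q UMI and 0 A UMIs. Just outside the rule lay the 2083 ties, of which 1247 had 0 UMIs of either set. At the gate itself, 335 Q-high nuclei (26.3%) had an F of 30 to under 40.

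Q also exceeded A in retained nuclei outside the fibroblast gate. Among untreated tumors 1 to 4, the share of gated nuclei with Q above A was 25.8%, 6.24%, 2.95% and 2.10%, and the share of nuclei outside the gate was 26.3%, 7.59%, 5.79% and 6.08%. Among Minnelide tumors 1 to 4, the share of gated nuclei was 5.81%, 7.28%, 5.56% and 4.99%, and the share outside was 7.67%, 8.004%, 7.17% and 7.87%. In all 8 tumors the share outside the gate was the higher. The F genes were not confined to gated nuclei either, since nuclei outside the gate, which lack either the F level or the 4 detected genes, had a median F of 65.3 in untreated 2.

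**Figure D1:**
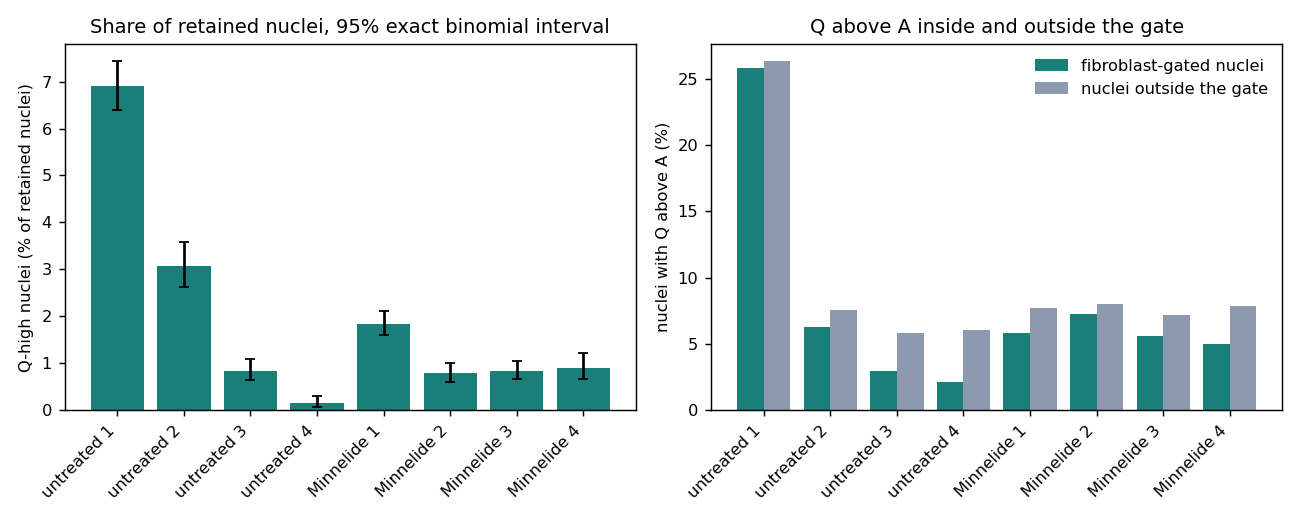
Left, Q-high nuclei as a percent of retained nuclei in each tumor, with 95% exact binomial intervals that cover counting error only. Right, the percent of nuclei with Q above A among fibroblast-gated nuclei and among retained nuclei outside the gate. Untreated 1 stood highest in both panels, at 6.90% of retained nuclei and 25.8% of gated nuclei.

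Tumor marker levels of Q-high nuclei reached those of nuclei outside the gate in several tumors. The sum of 12 tumor markers, among them the CIC::DUX4 targets Etv1, Etv4, Etv5, Shc3, Shc4 and Vgf, was set per 10000 UMIs of each nucleus. Its median in Q-high nuclei was 50.9, 201, 103 and 106 in untreated tumors 1 to 4 and 240, 108, 276 and 191 in Minnelide tumors 1 to 4. Nuclei outside the fibroblast gate, which include the tumor cells, had medians of 82.0, 197, 150 and 179 in untreated tumors 1 to 4 and 234, 112, 247 and 196 in Minnelide tumors 1 to 4. Q-high nuclei thus stood below them in untreated 1, 3 and 4 and near them in the other tumors. Under 100 tumor marker UMIs per 10000 were found in 484 of 653 Q-high nuclei of untreated 1, in 25 of 162 of untreated 2, in 27 of 55 of untreated 3 and in 3 of 8 of untreated 4. In Minnelide tumors 1 to 4 the numbers were 8 of 211, 24 of 59, 2 of 83 and 3 of 44. By this limit, 576 of the 1275 Q-high nuclei carried few tumor transcripts, most of them from untreated 1. The medians in macrophage-gated nuclei of the same tumors, a type that should lack these transcripts, ran from 28.5 in untreated 1 to 141 in Minnelide 3. They were 107 in untreated 4 (14 nuclei) and just over 100 in Minnelide 2 (63 nuclei), near the Q-high medians of 106 and 108. In the other tumors the Q-high median was the higher. In untreated 4, Minnelide 2 and Minnelide 3, a level of 100 or more thus does not by itself mark a nucleus as rich in tumor transcripts. The part that these transcripts have in the results was not tested.

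**Figure D2:**
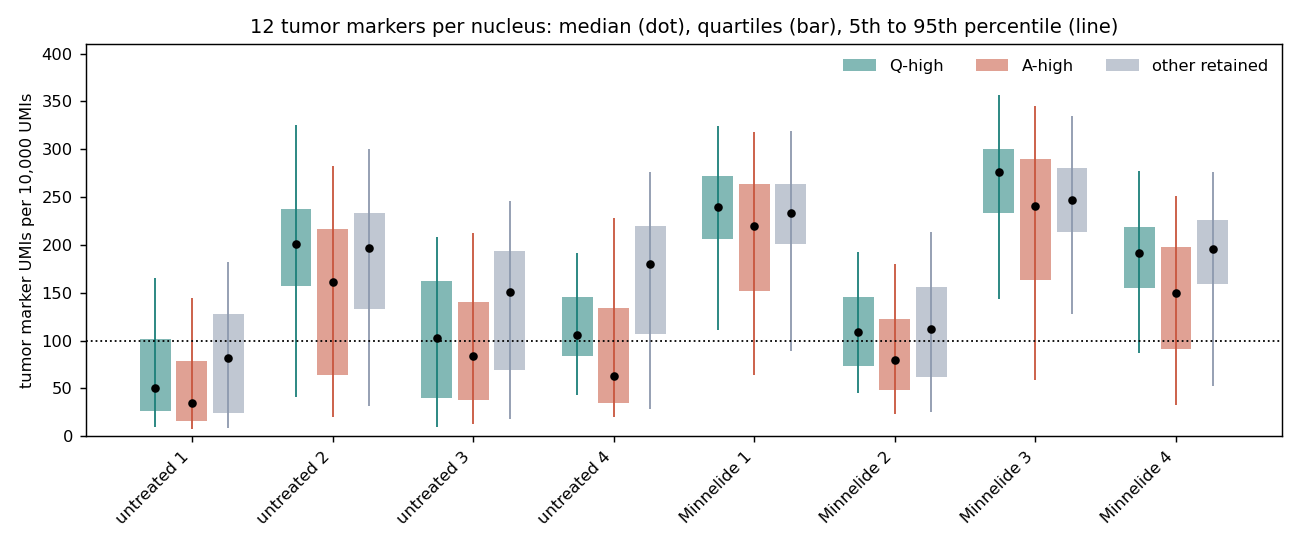
UMIs of 12 tumor markers per 10000 UMIs of a nucleus, by tumor, in Q-high, A-high and other retained nuclei, with the median as a dot, the quartiles as a bar and the 5th to 95th percentile as a line. The dotted line is at 100. The Q-high median lay below it in untreated 1 alone, at 50.9.

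Markers of other cell types were read as summed counts per 1000000 UMIs of a class in a tumor (CPM), over the 7 tumors with at least 20 Q-high nuclei. The 12 macrophage markers ran from 320 to 1343 CPM in Q-high nuclei and from 208 to 860 CPM in A-high nuclei, and were higher in Q-high nuclei of 6 of 7 tumors. The 12 myocyte markers ran from 791 to 30696 CPM in Q-high nuclei and from 972 to 16900 CPM in A-high nuclei, also higher in 6 of 7 tumors. The 12 endothelial markers ran from 502 to 3073 CPM in Q-high nuclei and were higher than in A-high nuclei in 3 of 7 tumors. Adipocyte markers were at 0 CPM in Q-high nuclei of untreated 3 and Minnelide 2, 3 and 4.

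The genes that chose the nuclei are given as a description. Gsn was at 1062, 153 and 446 CPM in Q-high nuclei of untreated 1, 2 and 3 and at 142, 368, 152 and 222 CPM in Minnelide 1 to 4, against 40.7 to 200 CPM in A-high nuclei. Scara5 was at 315, 68.9 and 391 CPM in untreated 1, 2 and 3 and at 194, 159, 152 and 146 CPM in Minnelide 1 to 4. Abca8a, a lipid transporter of the ABC family, was at 962, 171 and 384 CPM in untreated 1, 2 and 3 and at 219, 1140, 203 and 20.8 CPM in Minnelide 1 to 4. Minnelide 4 was therefore low for Abca8a, with 24.2 CPM in its A-high nuclei. Pi16 reached 367 CPM in Minnelide 4, 198 CPM in untreated 1 and 160 CPM in untreated 3, and was at 22.4 CPM in untreated 2 and 29.6 CPM in Minnelide 3. The Q set therefore differed in makeup, with Pi16 leading Abca8a in Minnelide 4 and trailing it in the other 6 tumors.

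Dcn was used by the gate but not by the split into Q-high and A-high. It was at 1403, 174 and 656 CPM in Q-high nuclei of untreated 1, 2 and 3 and at 252, 722, 161 and 936 CPM in Minnelide 1 to 4. A-high nuclei had 562, 214 and 145 CPM in untreated 1, 2 and 3 and 194, 229, 154 and 204 CPM in Minnelide 1 to 4. Dcn was higher in Q-high nuclei of 6 of 7 tumors, untreated 2 being the exception. Col1a2, a fibrillar collagen chain, was lower in Q-high than in A-high nuclei of all 7 tumors, with a mean of 1650 against 2364 CPM. Nuclei were also chosen on 50% of their UMIs and read on the others, in 7 tumors. The mean of Dcn was then 559 CPM in Q-high and 231 CPM in A-high nuclei. That of Gsn was 276 against 87.4 CPM and that of Postn 355 against 992 CPM. On these other UMIs Dcn and Gsn were each higher in Q-high nuclei of 5 of 7 tumors, against 6 and 7 of 7 on all UMIs. Postn was higher in 0 of 7.

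The share of Q-high nuclei was compared between treatment groups over tumors. Q-high nuclei made up 6.90%, 3.07%, 0.842% and 0.154% of retained nuclei in untreated tumors 1 to 4, a mean of 2.74% ± 3.04 (SD, n = 4). In Minnelide tumors 1 to 4 they made up 1.84%, 0.782%, 0.844% and 0.908%, a mean of 1.09% ± 0.50 (SD, n = 4). The untreated tumors spanned a wider range that took in every Minnelide tumor, and an exact two-sided permutation test gave p = 0.40 (adjusted p = 0.64 over 3 share tests). The difference of -1.65 percentage points, Minnelide minus untreated, was -0.26 without untreated 1 and -2.51 without untreated 4. As a share of gated nuclei, the mean was 9.28% ± 11.2 (SD, n = 4) in untreated and 5.91% ± 0.98 (SD, n = 4) in Minnelide tumors (exact permutation p = 0.91, adjusted p = 0.91). This difference changed sign without untreated 1, whose 25.8% stood far above the other untreated tumors. The smallest p that 4 against 4 tumors allow is 0.0286.

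Q-high nuclei were then set against A-high nuclei of the same tumor, the gated nuclei on the other side of the rule. These classes also differed in tumor markers. The A-high median per 10000 UMIs was 35.0, 162, 83.5 and 62.6 in untreated tumors 1 to 4. In Minnelide tumors 1 to 4 it was 220, 80.1, 240 and 150, and it lay below the Q-high median in every tumor. The part of this difference in the calls below was not tested. Q-high nuclei were also shallower than A-high nuclei in every tumor. Their median was 2421, 3134, 1931 and 2117 UMIs in untreated tumors 1 to 4, against 3282.5, 3491.5, 2991 and 2437.5. In Minnelide tumors 1 to 4 it was 3512, 2092, 2644 and 2523 UMIs, against 3753.5, 2788, 2921 and 2909. Counts were summed per class and tumor, the 19 genes of the rule were left out, and untreated 4 was left out because it held 8 Q-high nuclei. With edgeR's quasi-likelihood test and the tumor as a block, 570 of 10904 genes differed (5.23% of genes tested), of which 114 were higher in Q-high nuclei (1.05%) and 456 were lower (4.18%), at a Benjamini-Hochberg adjusted p under 0.05. Leaving out untreated 1 gave 35 higher and 333 lower genes, of which 29 and 299 were among those of the full fit. Restricting both classes to nuclei with under 100 tumor marker UMIs per 10000 left 4 tumors, with 107 higher and 268 lower genes. Untreated 1 supplied 484 of their Q-high nuclei, and the other tumors 24 to 27 each. Choosing nuclei on 50% of the UMIs and testing the others gave 84 higher and 238 lower genes of 7851 tested. A margin of 2 UMIs between Q and A gave 75 and 209. Of the 114 higher genes of the full fit, 56, 40 and 43 were still called under these 3 settings in turn. Of its 456 lower genes, 201, 221 and 199 were. With each chosen nucleus thinned to 1000 UMIs, 101 genes were higher and 328 were lower, of 8287 tested. At that depth 44 of the 114 higher genes and 268 of the 456 lower genes were still called.

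The 12 leading genes higher in Q-high nuclei included Tnxb, Cd55, the transporters Abca8b and Abca6, and 4 genes of leukocytes. Tnxb (chromosome 17, 34879431 to 34938789, plus strand, GRCm39), which encodes the matrix glycoprotein tenascin-X, was at 260, 15.5 and 258 CPM in Q-high nuclei of untreated 1, 2 and 3 and at 56.0, 195, 12.7 and 125 CPM in Minnelide 1 to 4. A-high nuclei had 45.1, 2.98 and 6.54 CPM of Tnxb in untreated 1, 2 and 3 and 9.83, 41.7, 4.37 and 12.8 CPM in Minnelide 1 to 4. Q-high nuclei were the higher in all 7 tumors, by a fitted log2 fold change of 2.86 ± 0.31 (SE; edgeR adjusted p = 2.37e-05). Untreated 2 and Minnelide 3 had the lowest levels in Q-high nuclei.

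Cd55 (chromosome 1, 130366469 to 130390926, minus strand) encodes decay-accelerating factor, which protects cells from complement. It was at 434, 25.9 and 418 CPM in Q-high nuclei of untreated 1, 2 and 3 and at 79.7, 57.7, 71.9 and 125 CPM in Minnelide 1 to 4. A-high nuclei had 94.3, 14.99 and 21.5 CPM in untreated 1, 2 and 3 and 20.7, 40.3, 17.9 and 27.6 CPM in Minnelide 1 to 4. The difference was 2.13 ± 0.31 in log2 (SE; edgeR adjusted p = 0.000433), with Q-high nuclei higher in all 7 tumors.

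The ABC transporters Abca8b and Abca6, neighbors and relatives of Abca8a, were also higher in all 7 tumors. Abca8b was at 129 ± 122 CPM in Q-high and 46.8 ± 55.6 CPM in A-high nuclei (SD, n = 7), a log2 fold change of 1.45 ± 0.19 (SE; edgeR adjusted p = 0.000146). Abca6 had a log2 fold change of 1.42 ± 0.26 (SE; edgeR adjusted p = 0.00273). Reads may be split between Abca8a and Abca8b, which resemble each other in sequence. Opcml, a GPI-anchored adhesion protein, had a log2 fold change of 2.70 and a mean of 61.5 CPM in Q-high nuclei, of which Minnelide 4 alone held 243 CPM.

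Genes of leukocytes were among the leading higher genes as well. Ptprc, the pan-leukocyte phosphatase CD45, was at 87.6 ± 29.3 CPM in Q-high and 40.6 ± 21.5 CPM in A-high nuclei (SD, n = 7), higher in all 7 tumors (edgeR adjusted p = 0.00202). Its level in nuclei outside the gate ran from 24.4 to 183 CPM over the 8 tumors. Dock2 and Arhgap15, both expressed in leukocytes, and Cd74, the MHC class II invariant chain, had log2 fold changes of 1.02, 0.99 and 1.00. Ptprc and Cd74 belong to the macrophage markers whose sum was higher in Q-high nuclei of 6 of 7 tumors. The calls of Ptprc, Dock2, Arhgap15 and Cd74 were lost when nuclei were chosen on 50% of their UMIs and when a margin of 2 was asked. Klf2, a transcription factor prominent in endothelium, Ly6a, the surface protein Sca-1, and Pla1a, a phospholipase, completed the 12 leading higher genes, with log2 fold changes of 1.31, 1.02 and 0.95.

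The genes lower in Q-high nuclei differed more in size. Brinp3 was at 65.8, 91.3 and 314 CPM in Q-high nuclei of untreated 1, 2 and 3 and at 39.8, 166, 63.4 and 13.9 CPM in Minnelide 1 to 4. A-high nuclei had 1048, 2303 and 2327 CPM in untreated 1, 2 and 3 and 559, 2351, 907 and 1137 CPM in Minnelide 1 to 4. The ranges of the classes did not overlap, and the log2 fold change was -4.01 ± 0.20 (SE; edgeR adjusted p = 1.94e-08). Nuclei outside the gate had 50.7 to 330 CPM of Brinp3, and Q-high nuclei of Minnelide 1 and Minnelide 4 were below that range. Edil3, an integrin-binding secreted protein, was at 128 ± 93.1 CPM in Q-high and 1120 ± 274 CPM in A-high nuclei (SD, n = 7; edgeR adjusted p = 3.19e-08).

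The carboxypeptidase gene Cpa6 had the largest fitted decrease among the named genes, a log2 fold change of -5.42, with 0 CPM in Q-high nuclei of untreated 2 and 3 and Minnelide 1 and 2. Hs6st3, a heparan sulfate sulfotransferase, had a log2 fold change of -4.36. Grb14, an adaptor that dampens insulin receptor signaling, was at 10.5 ± 4.1 CPM in Q-high and 99.5 ± 31.3 CPM in A-high nuclei (SD, n = 7; edgeR adjusted p = 3.19e-08). Mkx, the tendon transcription factor Mohawk, differed by -3.35 in log2, and the sum of the 9 tendon markers, Mkx among them, was lower in Q-high than in A-high nuclei of 7 of 7 tumors. Pdzrn4, Hmgcll1, Frmd5, Smoc1, Kcnip4 and Car12 were lower by 3.04 to 3.77 in log2, each in all 7 tumors. Runx2, a regulator of osteoblasts, was at 373 ± 193 CPM in Q-high and 1169 ± 636 CPM in A-high nuclei (SD, n = 7; edgeR adjusted p = 1.21e-07).

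**Figure D3:**
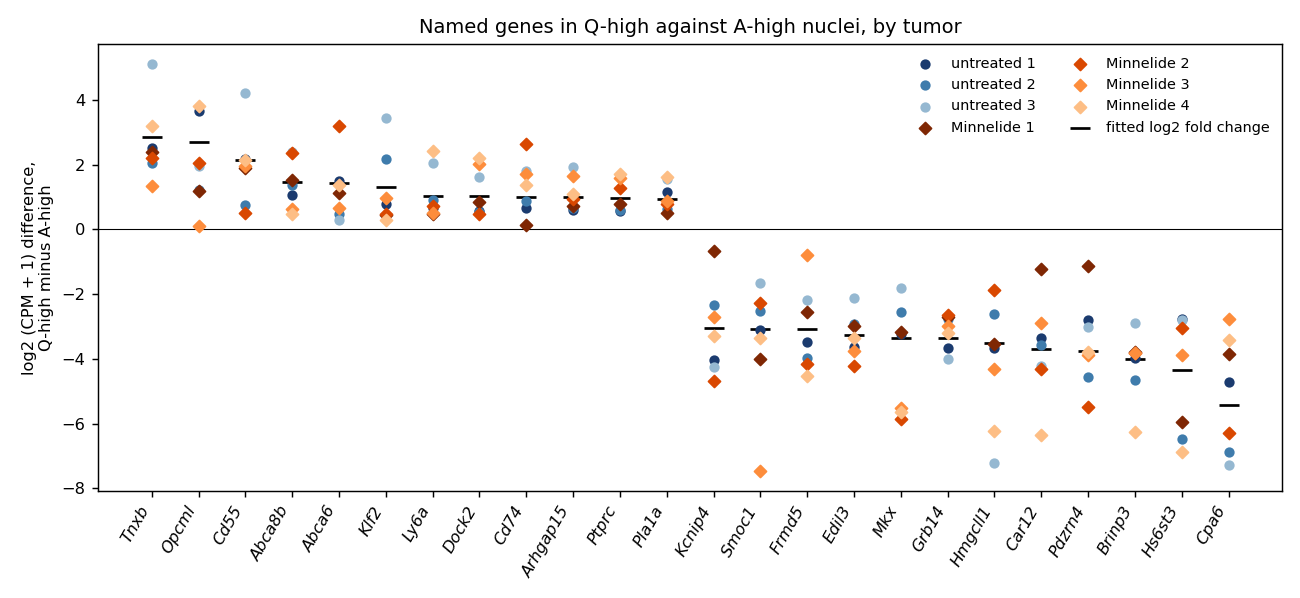
Difference in log2 (CPM + 1) between Q-high and A-high nuclei of the same tumor for the 12 leading higher and 12 leading lower genes, with 1 symbol per tumor (circles untreated, diamonds Minnelide) and a black bar at the fitted log2 fold change. All 7 tumors lie on the same side of 0 for each gene, which the choice of genes required.

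The gene lists were chosen with earlier results of these data known, so their directions are descriptions. Of 20 tested adventitial fibroblast genes outside the rule, 9 were higher, 0 were lower and all 20 had a fold change above 0, with a median log2 fold change of 0.97 against 0.01 over all genes tested. The 9 genes were Cd55, Dpt, Sema3c, Clec3b, Ugp2, Efemp1, Ly6a, Igfbp6 and Tnxb. Summed over its 21 measured genes, the list stood at 6244, 2018 and 6890 CPM in Q-high nuclei of untreated 1, 2 and 3 and at 3459, 3716, 2859 and 4914 CPM in Minnelide 1 to 4. In A-high nuclei it stood at 3148, 1944 and 1865 CPM in untreated 1, 2 and 3 and at 2638, 3015, 2639 and 2095 CPM in Minnelide 1 to 4. The gap was wide in untreated 1, untreated 3 and Minnelide 4 and small in untreated 2 and Minnelide 3. Without untreated 1, 6 of 19 tested genes were higher, and in nuclei with few tumor transcripts 8 of 20 were.

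Sema3c, a secreted guidance cue, was at 390, 29.3 and 495 CPM in Q-high nuclei of untreated 1, 2 and 3 and at 299, 361, 59.2 and 742 CPM in Minnelide 1 to 4. It was higher than in A-high nuclei in 6 of 7 tumors, untreated 2 being lower (log2 fold change 1.67; edgeR adjusted p = 0.00297). Ugp2, which makes UDP-glucose, was higher in 7 of 7 tumors by 0.36 in log2 (edgeR adjusted p = 0.0315), a call lost under 7 alternatives. The parenchymal interstitial list gave 0 higher and 2 lower genes of 18 tested. These were Smoc2, a matricellular protein, and Bmp5, a bone morphogenetic protein, with log2 fold changes of -1.17 and -2.24. The median log2 fold change of the list was 0.25.

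Of 40 tested genes of matrix fibroblast activation, 17 were lower in Q-high nuclei and 0 were higher, with a median log2 fold change of -0.62. The called genes included Fap, Acta2, Tagln, Tnc, Inhba and Tgfb2. Col5a2 was at 533 ± 227 CPM in Q-high and 1419 ± 447 CPM in A-high nuclei, Col8a1 at 453 ± 382 and 1275 ± 681 CPM, and the transcription factor Runx1 at 477 ± 297 and 1451 ± 315 CPM (SD, n = 7), each lower in 7 of 7 tumors. The cadherin Cdh11 was lower in 6 of 7 tumors, by a fitted log2 difference of -0.77 (edgeR adjusted p = 0.0148). The list sum in Q-high nuclei, 8622 to 14875 CPM, lay between that of A-high nuclei, 15925 to 19029 CPM, and that of nuclei outside the gate, 6341 to 9196 CPM, in each of the 7 tumors. Without untreated 1, 14 of 39 genes were lower.

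**Figure D4:**
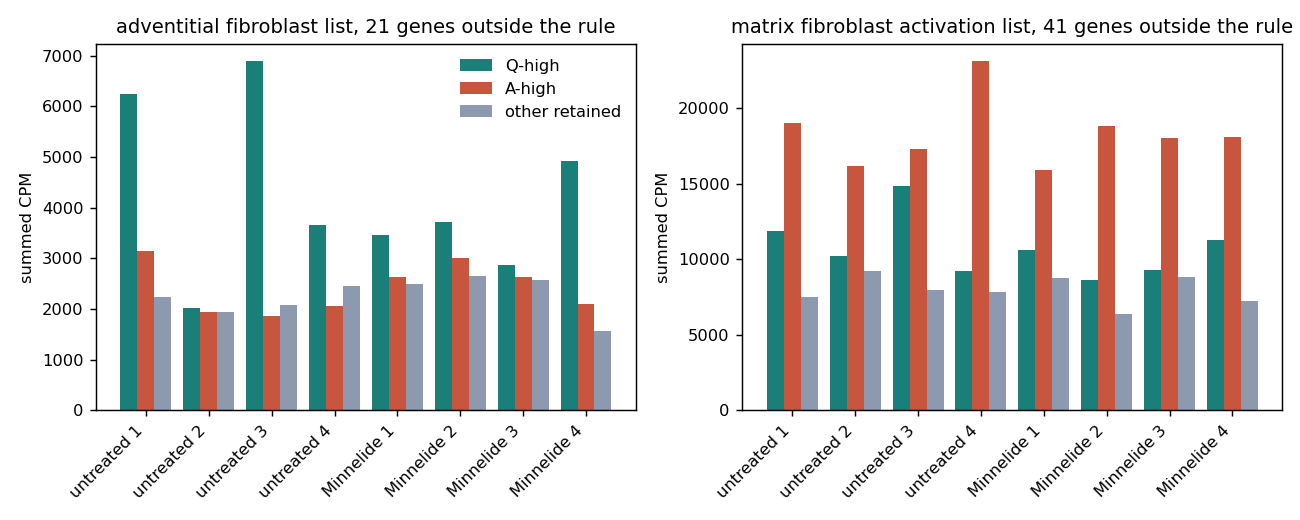
Summed CPM of the adventitial fibroblast list (left, 21 genes) and the matrix fibroblast activation list (right, 41 genes) in Q-high, A-high and other retained nuclei of each tumor. Untreated 4 holds 8 Q-high nuclei and entered no gene test. In untreated 2 the adventitial sum was 2018 CPM in Q-high and 1944 CPM in A-high nuclei.

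Other lists had fewer called genes, beside shares of 1.05% higher and 4.18% lower over all genes tested. Of 14 complement genes tested, Cd55, C7 and C3 were higher and Masp1 was lower. C3, the central complement component, was at 162 CPM in Q-high nuclei of untreated 1 and at 11.2 to 24.1 CPM in the other 6 tumors, and its call was lost without untreated 1. C7, a terminal complement component, was at 148 CPM in untreated 1 and 166 CPM in Minnelide 2 but at 0 CPM in untreated 3, Minnelide 3 and Minnelide 4. Of 9 ABCA transporters tested, Abca8b and Abca6 were higher and 0 were lower. Of 16 genes of the growth hormone and IGF axis, Igfbp6 was higher, while the growth hormone receptor Ghr, the feedback inhibitor Socs2 and the protease Pappa2 were lower. Ghr was at 403 ± 265 CPM in Q-high and 635 ± 210 CPM in A-high nuclei (SD, n = 7; edgeR adjusted p = 0.00348).

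Among 30 fibroblast lineage transcription factors tested, 4 were higher (Klf4, Nfia, Klf2 and Ebf2) and 6 were lower (Prrx2, Tbx15, Foxp2, Runx1, Runx2 and Mkx). Ebf2 was at 654 ± 344 CPM in Q-high and 397 ± 170 CPM in A-high nuclei (SD, n = 7; edgeR adjusted p = 0.00812). In the signaling lists every called gene but Bmp6 was lower, but so were 456 of the 570 genes called over all genes tested. The lower genes were Rspo3, Nkd1 and Nkd2 of 17 WNT genes and Acvr1, Bmp5 and Fst of 28 BMP and TGF-beta genes. Of 19 PDGF, FGF and hedgehog genes they were Pdgfrb, Pdgfrl and Fgfr2. Pdgfrb, the PDGF receptor beta, was at 114 ± 32.6 CPM in Q-high and 216 ± 67.2 CPM in A-high nuclei (SD, n = 7; edgeR adjusted p = 0.000526). Of 15 cytokine genes tested, Tnfsf11, the osteoclast factor RANKL, was lower by -2.40 in log2, and the interleukin receptor Il1r1 was lower too. The interferon list had 1 called gene of 19 tested, the lower Ifi44, close to the 5.23% called over all genes. The collagen VI chains Col6a1, Col6a2 and Col6a3 were lower among the 17 tested genes of the basement membrane list. Of the small leucine rich proteoglycans and elastic fiber genes, Efemp1 and Dpt were higher and Aspn (asporin) was lower. Zbtb16 was higher and Sesn3 lower among the glucocorticoid and FOXO responsive genes, and Jund was higher among immediate early genes. The adipogenic, cell cycle, and RNA polymerase II and TFIIH lists had 0 called genes of 9, 37 and 21 tested.

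Within the Q-high nuclei, those with at least 1 UMI of Pi16 or Dpp4 were set apart, since in many tissues these genes mark adventitial fibroblasts. They numbered 224, 21, 18 and 1 in untreated tumors 1 to 4 and 42, 10, 12 and 13 in Minnelide tumors 1 to 4, or 341 of the 1275. After each nucleus was thinned to 1000 UMIs, the share of Q-high nuclei with such a UMI was 21.4%, 5.56%, 21.8% and 12.5% in untreated tumors 1 to 4 and 9.005%, 10.2%, 6.02% and 20.5% in Minnelide tumors 1 to 4. Nuclei outside the gate had 4.46% in untreated 1 and 0.660% to 1.22% in the other tumors at the same depth. The thinned share of untreated 4 was 1 of 8 nuclei. The unthinned shares in Q-high nuclei ran from 12.5% to 34.3%, at median depths of 1931 to 3512 UMIs. Since Pi16 and Dpp4 UMIs count toward Q, an excess over other nuclei is set by the rule. Treatment groups overlapped, with means of 15.3% ± 7.8 in untreated and 11.4% ± 6.3 in Minnelide tumors (SD, n = 4; exact permutation p = 0.43, adjusted p = 0.64).

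The split could be fitted in untreated 1, untreated 2 and Minnelide 1, the tumors with at least 20 nuclei on each side. Nuclei with a Pi16 or Dpp4 UMI were deeper in untreated 1, with a median of 2906.5 against 2199 UMIs, and in Minnelide 1, with 3868.5 against 3457, but not in untreated 2, with 2965 against 3157. By edgeR, 57 of 8185 genes differed (0.696%), of which 54 were higher (0.66%) and 3 were lower (0.0367%) in nuclei with such a UMI. With nuclei thinned to 1000 UMIs, 17 were higher and 0 were lower, of 3896 tested. Without untreated 1, 15 were higher and 1 was lower, without untreated 2, 230 were higher and 53 were lower, and without Minnelide 1, 77 were higher and 11 were lower.

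Genes of hyaluronan metabolism were among the higher genes. Hyaluronan is a matrix sugar polymer that fibroblasts build from UDP-sugars. Tnfaip6 (chromosome 2, 51927998 to 51946698, plus strand), which links hyaluronan to proteins, was at 301, 24.7 and 253 CPM in nuclei with a Pi16 or Dpp4 UMI of untreated 1, untreated 2 and Minnelide 1, against 17.1, 10.0 and 20.7 CPM in the others. Its log2 fold change was 3.69 ± 0.34 (SE; edgeR adjusted p = 0.000437). Ugdh (chromosome 5, 65570551 to 65593805, minus strand), which makes UDP-glucuronic acid, was at 626, 49.5 and 357 CPM against 84.7, 40.1 and 50.8 CPM (log2 fold change 2.54 ± 0.32, SE; edgeR adjusted p = 0.00214). Uap1 (chromosome 1, 169967484 to 170002556, minus strand), which makes UDP-N-acetylglucosamine, was at 449, 61.8 and 483 CPM against 72.98, 34.0 and 55.6 CPM (log2 fold change 2.58 ± 0.29, SE; edgeR adjusted p = 0.00137). Gfpt2, the entry enzyme of the hexosamine pathway, was at 349 ± 394 against 60.6 ± 35.0 CPM (SD, n = 3) and was higher in 2 of 3 tumors. The gap was wide in untreated 1 and Minnelide 1 and smaller in untreated 2 for Tnfaip6, Ugdh and Uap1. Untreated 2 had 21 nuclei with a Pi16 or Dpp4 UMI, so its values there rest on few UMIs. The calls of Ugdh and Gfpt2 were lost without untreated 1. These genes did not form a list and were grouped after their values were seen.

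Other leading genes were Adamts5, an aggrecan-cleaving protease, at 679, 74.2 and 477 CPM against 151, 32.0 and 27.01 CPM, and Cd55, at 768, 49.5 and 305 CPM against 169, 22.03 and 17.5 CPM, in untreated 1, untreated 2 and Minnelide 1. Both were higher in 3 of 3 tumors, by 2.62 and 2.57 in log2, with few UMIs behind the values of untreated 2. The transcription factor Klf4, the semaphorin Sema3e and Opcml were higher by 2.41, 3.49 and 2.64 in log2. The lower genes by the rule for named genes were Myl4 and Car3, genes of striated muscle, by -2.03 and -1.16, and the third called gene, named after its value was seen, was the myosin heavy chain Myh8, by -2.26 (edgeR adjusted p = 0.0237).

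Of 17 adventitial genes tested in this split, 9 were higher and 0 were lower, with a median log2 fold change of 1.81 against -0.04 over all genes tested. They were Cd55, Sema3c, Creb5, Mfap5, Pcolce2, Clec3b, Efemp1, Gfpt2 and Tnxb. Sema3c was at 813 and 1070 CPM against 54.1 and 85.8 CPM in untreated 1 and Minnelide 1, but at 24.7 against 30.04 CPM in untreated 2. The list sum in nuclei with a Pi16 or Dpp4 UMI was 9916 CPM in untreated 1, 12290 CPM in untreated 3, 7029 CPM in Minnelide 1, 7658 CPM in Minnelide 2 and 10054 CPM in Minnelide 4, against 3327, 2963, 2474, 2772 and 1370 CPM in the other Q-high nuclei. In untreated 2 it was 1954 against 2028 CPM and in Minnelide 3 it was 3299 against 2786 CPM. The sum was thus much higher beside a Pi16 or Dpp4 UMI in 5 of these 7 tumors, slightly higher in Minnelide 3 and slightly lower in untreated 2. Among nuclei with a Pi16 or Dpp4 UMI, under 100 tumor marker UMIs per 10000 were found in 183 of 224, 2 of 21 and 14 of 18 in untreated 1, 2 and 3 and in 4 of 42, 5 of 10, 1 of 12 and 2 of 13 in Minnelide 1 to 4. In the other Q-high nuclei the numbers were 301 of 429, 23 of 141 and 13 of 37 in untreated 1, 2 and 3. In Minnelide 1 to 4 they were 4 of 169, 19 of 49, 1 of 71 and 1 of 31. The share was larger beside a Pi16 or Dpp4 UMI in each of these tumors but untreated 2. The split could not be fitted in nuclei with few tumor markers. The part of tumor transcripts in the gaps of the list and its genes was not tested. The parenchymal list had 1 higher gene of 15 tested, Htra3, and the matrix activation list had 1 of 37, Fap, beside 0.66% over all genes. In the remaining lists Cd55 and C7 of 9 complement genes, Klf4 of 24 transcription factors and Dkk2 of 8 WNT genes were called. So were Mfap5, Efemp1 and Emilin2 of 17 proteoglycan and elastic fiber genes and Fgf2 and Cdon of 15 PDGF, FGF and hedgehog genes. All were higher, but so were 54 of the 57 genes called over all genes tested.

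**Figure D5:**
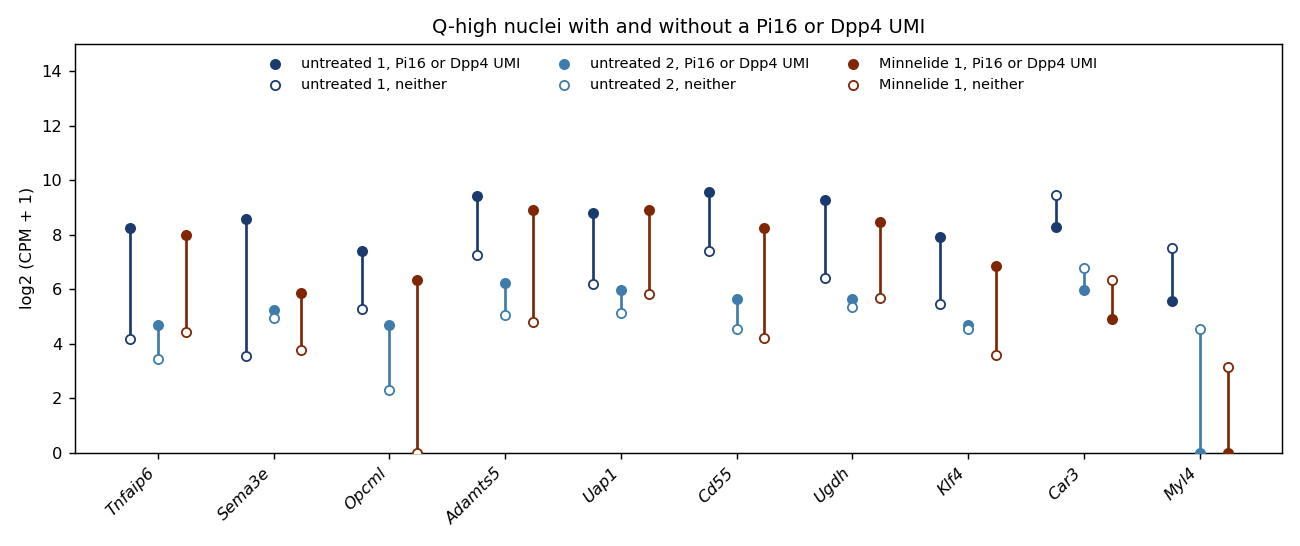
Levels in log2 (CPM + 1) of the leading genes in Q-high nuclei with (filled) and without (open) a Pi16 or Dpp4 UMI, joined within a tumor. Tnfaip6 went from 17.1 to 301 CPM in untreated 1, and the gaps in untreated 2 were small for Ugdh, Klf4 and Sema3e.

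Minnelide was compared with no treatment in the summed Q-high nuclei of 3 untreated and 4 Minnelide tumors. By edgeR, 0 of 5299 genes passed an adjusted p of 0.05 (0.0% called), while 375 had an unadjusted p under 0.05 and DESeq2 called 1 higher and 2 lower. The 6 genes with the smallest p in each direction all had an edgeR adjusted p of 0.673 and are given as values. Tumor marker medians in these nuclei ran from 108 to 276 per 10000 UMIs in Minnelide tumors and from 50.9 to 201 in the 3 untreated tumors, and their part in these values was not tested. In these summed counts, fewer transcripts per nucleus and fewer nuclei of a kind cannot be told apart. The values below are CPM in Q-high nuclei.

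Slc4a4, a sodium bicarbonate cotransporter, was at 121, 138 and 167 CPM in untreated 1, 2 and 3 and at 371, 411, 419 and 236 CPM in Minnelide 1 to 4. The groups did not overlap, as was the case for 318 of 5299 genes (6.0%). Its level in nuclei outside the gate was 56.8, 128, 225 and 391 CPM in untreated tumors and 382, 320, 463 and 211 CPM in Minnelide tumors, where the groups overlapped. Mdk, the growth factor midkine, was at 21.6, 44.8 and 34.9 CPM in untreated 1, 2 and 3 and at 194, 79.4, 203 and 55.5 CPM in Minnelide 1 to 4. In nuclei outside the gate Mdk was at 8.12, 44.2, 14.6 and 10.5 CPM in untreated tumors and at 103, 42.5, 87.6 and 70.2 CPM in Minnelide tumors. Ulbp1, a ligand of the NKG2D receptor, was at 46.5 ± 25.6 CPM in untreated (SD, n = 3) and 129 ± 8.83 CPM in Minnelide tumors (SD, n = 4). Gramd1b, Rhobtb1 and Spock3 had log2 fold changes of 1.10, 0.82 and 4.10, and Spock3 was at 0 CPM in untreated 3 and Minnelide 4.

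Shank3, a scaffold protein, was at 77.8, 84.4 and 105 CPM in untreated 1, 2 and 3 and at 19.9, 28.9, 8.46 and 6.93 CPM in Minnelide 1 to 4, a fitted log2 fold change of -2.41 ± 0.42 (SE; edgeR adjusted p = 0.673, DESeq2 adjusted p = 0.0266). The Q-high sums of Minnelide 2, 3 and 4 held 138595, 236451 and 144278 UMIs, so values this low rest on a few UMIs. Klf2 was at 173, 77.6 and 167 CPM in untreated 1, 2 and 3 and at 21.2, 28.9, 25.4 and 48.5 CPM in Minnelide 1 to 4 (DESeq2 adjusted p = 0.0445). In nuclei outside the gate Klf2 was at 94.2, 16.4, 18.5 and 10.9 CPM in untreated tumors and at 11.3, 11.0, 11.0 and 25.1 CPM in Minnelide tumors. Slc4a4 was the third gene that DESeq2 called (adjusted p = 0.0445). Ptpre, Rapgef5, Crispld2 and Klf6 had log2 fold changes of -1.51, -1.43, -2.10 and -2.26, and their groups did not overlap.

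By list, all 10 tested immediate early genes had a fitted fold change below 0 in Minnelide tumors, with a median of -1.59 in log2 against -0.04 over all genes tested, and 0 were called. Fos was at 105, 65.5 and 335 CPM in untreated 1, 2 and 3 and at 61.0, 64.9, 54.98 and 132 CPM in Minnelide 1 to 4, so that the groups overlapped. Jund was at 190, 82.7 and 195 CPM in untreated 1, 2 and 3 and at 84.7, 72.2, 67.7 and 83.2 CPM in Minnelide 1 to 4, with an overlap at untreated 2. Of 20 cell cycle genes tested, 19 had a fold change above 0 (median 0.67) and 0 were called. Top2a, the S and G2 phase topoisomerase, was at 44.2, 300 and 167 CPM in untreated 1, 2 and 3 and at 369, 93.8, 351 and 243 CPM in Minnelide 1 to 4, and Ezh2 was at 81.9, 312 and 265 CPM and at 463, 224, 313 and 381 CPM. Of 17 adventitial genes, 15 had a fold change below 0 (median -0.61) and 0 were called. Fbn1, the microfibril protein fibrillin, was at 937, 290 and 1548 CPM in untreated 1, 2 and 3 and at 497, 635, 550 and 894 CPM in Minnelide 1 to 4, and Limch1 had a log2 fold change of 0.63. Polr2a, the largest subunit of RNA polymerase II, was at 109, 143 and 140 CPM in untreated 1, 2 and 3 and at 147, 130, 161 and 139 CPM in Minnelide 1 to 4, and Mnat1, a TFIIH subunit gene, had a log2 fold change of -0.14. The RNA polymerase II and TFIIH list had 7 tested genes and 0 called.

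A test of the difference between the Minnelide effect in Q-high nuclei and that in A-high nuclei called 0 of 10904 genes (0.0% called) by edgeR, with 484 at an unadjusted p under 0.05 and 0 by DESeq2. The smallest adjusted p was 0.30, for Pdlim1, an actin-associated LIM protein. Pdlim1 was at 145, 94.8 and 76.7 CPM in Q-high nuclei of untreated 1, 2 and 3 and at 29.9, 72.2, 16.9 and 27.7 CPM in Minnelide 1 to 4. In A-high nuclei Pdlim1 was at 111, 43.4 and 48.3 CPM and at 61.4, 124, 64.1 and 47.6 CPM. Ccdc141 and Myo6 had differences of -2.30 and -1.23 in log2, and C7, Draxin and Thsd7a of 2.67, 2.31 and 0.85, each with an adjusted p of 0.925.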

How the data were processed

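Nuclei of 8 tumors were profiled by the authors with 10x Genomics single-nucleus RNA-seq. The authors deposited raw UMI counts per gene and nucleus, made with Cell Ranger 9.0.1 per the file headers (7.0.1 in the submitters' notes) on mm39, over 19059 features. Which annotation or probe set was counted is not given in the sources used here, so counts of overlapping genes and close paralogs are uncertain. The coordinates printed are those of GENCODE release M39 (GRCm39), matched by gene ID. The matrices were taken as tumors because the series design gives 4 tumors per group. File names carry words on the response of the Minnelide tumors that the labels lack. These were not used, so means and SDs of the Minnelide group are over tumors of either response.

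Members and gene lists were chosen with earlier results of these data known, and the member rule uses measured counts. Counts were summed per tumor and class with at least 20 nuclei. Genes were filtered by filterByExpr, normalized by TMM and tested by edgeR 4.0.16's quasi-likelihood test, with the tumor as a block for classes within a tumor; DESeq2 1.42.0 was an alternative. SEs were derived from the test statistic. The fits were tested on simulated data. Shares were compared by an exact permutation test over tumors. Doublets stayed in; an alternative removed those that Scrublet (scanpy 1.11.5) called. Genes were named by rule: the 12 (8 for the Pi16 or Dpp4 split) largest called changes per direction outside the 19 rule genes, with the same sign in every tumor and at least 50 CPM; the 6 (3 for the difference of effects) smallest p per direction where fewer than 5 genes were called, at 20 CPM or more; and up to 4 called genes per list. Uncalled list genes were named for 4 lists in the Minnelide comparison. The labels do not say how the tumors were batched. Nuclei barcodes were shared within 4 pairs of tumors, each an untreated and a Minnelide tumor (49 to 132 barcodes). Tumors of the same group shared 0 barcodes. In 8 of the shared barcodes a Q-high nucleus was involved, and in 0 both nuclei were Q-high. The paper names on-chip multiplexing of its libraries, and shared barcodes do not show that a pair shared a run. Treatment and any effect of a run cannot be told apart. Nothing in the labels states that tumors came from separate mice. The p-values of the share tests and of the Minnelide comparison measure the spread between these tumors. Those of tests with the tumor as a block measure how the difference between classes varied over these tumors.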

Additional observations from a re-analysis of the deposited data

Results flagged for a closer look

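A total of 26 groups of 4 tumors were examined for a value far from the others, and 5 such values were found, where chance gives about 1 in 20. In untreated 1 the 12 myocyte markers summed to 30696 CPM in Q-high nuclei, against 6787 to 7597 CPM in the other untreated tumors. In Minnelide 2 they summed to 21747 CPM, against 791 to 3741 CPM in the other Minnelide tumors. Nuclei outside the gate had 1220 to 30610 CPM of the myocyte markers over the 7 tumors with at least 20 Q-high nuclei. High levels were thus not particular to Q-high nuclei. Outside the gate, adipocyte markers ran from 0.553 to 72.7 CPM in the same tumors. The 8 adipocyte markers summed to 84.9 CPM in Q-high nuclei of untreated 1, against 0 to 3.45 CPM in the other untreated tumors, and to 1.24 CPM in Minnelide 1, against 0 CPM in the other Minnelide tumors. The value of Minnelide 1 is 1 UMI among 803335, and since the other 3 are at 0, any UMI would have stood apart, so it carries no information on adipocyte RNA. The share of Q-high nuclei among retained nuclei was 1.84% in Minnelide 1, against 0.782% to 0.908% in the other Minnelide tumors.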

How the results depend on the processing

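No share test passed 0.05 under the alternatives run. When 1 tumor was left out, the difference in the share of retained nuclei, Minnelide minus untreated, ran from -2.51 to -0.26 percentage points (-0.26 without untreated 1) and that in the Pi16 or Dpp4 share from -7.17 to -1.75 (-7.17 without untreated 2, -1.75 without untreated 3). The difference in the share of gated nuclei ran from -5.76 to 2.15 percentage points when 1 tumor was left out, positive without untreated 1 alone, and that in the Pi16 or Dpp4 share was 4.77 points with F of at least 50. Called genes of Q-high against A-high nuclei numbered 570, and 368 to 754 when 1 tumor was left out, lowest without untreated 1; they numbered 284 with a margin of 2, 322 when chosen on 50% of UMIs and, by alternatives chosen after seeing the data, 375 with few tumor markers and 429 with thinned nuclei. The Minnelide comparison in Q-high nuclei had 0 calls, and 3 by DESeq2. The difference of effects had 0 calls, 79 with no filter on low counts, 1 with thinned nuclei and 0 to 19 when 1 tumor was left out (19 without untreated 2). The Pi16 or Dpp4 split had 57 calls, 27 by DESeq2, 304 with no filter, 124 with F of at least 50, 263 with a margin of 2, 17 with thinned nuclei and 16 to 283 when 1 tumor was left out (16 without untreated 1, 283 without untreated 2). Among named genes, the log2 fold change of Fbn1 ran from -0.96 to 0.087 when 1 tumor was left out (0.087 without untreated 3), and that of Polr2a turned to -0.14 with thinned nuclei in the Minnelide comparison. The causes were not tested. Removing nuclei with over 0.5% of UMIs from markers of other cell types left too few nuclei, and no gene comparison could be fitted; nor could the Pi16 or Dpp4 split in nuclei with few tumor markers. No paired analysis was possible because the labels number no tumors. With 8 Q-high nuclei, untreated 4 entered no gene test.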
